A study of Mus musculus with 4 samples.

Results

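The interferon-stimulated genes followed here were 41 genes chosen by name, as rows of the deposited gene table whose symbol stands on a fixed list, out of 24418 genes listed. They comprise 5 sensors of foreign nucleic acid, 3 transcription factors, 15 antiviral effectors, 6 guanylate-binding and immunity-related GTPases, 5 feedback and ubiquitin-like genes and 7 other interferon-induced genes. No measured value entered the choice, although the list was drawn up with earlier results of these data known. Regulatory T cells (Treg cells) were obtained from the spleens and lymph nodes of Foxp3yfpCre mice of 8 to 12 weeks, sorted, and cultured for 3 h with TSLP at 100 ng/mL (2 libraries, TSLP 1 and TSLP 2) or with PBS (2 libraries, PBS 1 and PBS 2). In these mice the Foxp3 locus drives a yellow fluorescent protein fused to Cre recombinase, so that both groups carried the same reporter allele. TSLP, thymic stromal lymphopoietin, is an epithelial cytokine whose receptor signals through JAK kinases and STAT5. Neither whether a library held cells of 1 or several animals nor whether the 4 libraries came from separate animals is given in the sources used here, so p-values measure only the spread between these samples.

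Type I interferons bind the receptor chains Ifnar1 and Ifnar2 and assemble the complex ISGF3, which contains Stat2 and Irf9 and binds interferon-stimulated response elements in promoters. Interferon gamma binds Ifngr1 and Ifngr2 and acts on gamma-activated sites in promoters. T cells keep a low, tonic interferon program, and in Treg cells interferon signalling is known to bear on their suppressive function. The question put to the libraries was whether 3 h of TSLP shifted this program, and how strongly the program was read in Treg cells that received PBS alone.

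The promoters of 8 genes are printed because they show the letters that link genes of very different level, from Isg15 and Igtp, among the most strongly read, to Ifit3, Oas1a and Rsad2, which had few reads. Each line gives up to 60 bases upstream of the RefSeq start (GRCm38.p6), 5′ to 3′ on the transcribed strand, and capitals mark the core of the interferon-stimulated response element, searched for as GAAA followed after any 2 bases by another GAAA, on either strand (TTTC on the opposite one). The stretches lie at chr4:156200850-156200909 on the reverse strand (Isg15), chr19:34640779-34640838 forward (Ifit1), chr19:34583382-34583441 forward (Ifit3), chr5:120907526-120907564 reverse (Oas1a), chr12:26456538-26456597 reverse (Rsad2), chr8:71537562-71537621 reverse (Bst2), chr10:128270251-128270310 forward (Stat2) and chr11:58199497-58199555 forward (Igtp).
Isg15: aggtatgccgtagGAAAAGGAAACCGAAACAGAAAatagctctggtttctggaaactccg
Ifit1: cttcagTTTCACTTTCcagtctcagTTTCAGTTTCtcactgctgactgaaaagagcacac
Ifit3: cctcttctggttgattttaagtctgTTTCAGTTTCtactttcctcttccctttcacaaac
Oas1a: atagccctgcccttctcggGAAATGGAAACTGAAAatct
Rsad2: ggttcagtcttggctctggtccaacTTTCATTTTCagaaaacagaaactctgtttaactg
Bst2: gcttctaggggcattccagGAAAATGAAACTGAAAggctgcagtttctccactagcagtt
Stat2: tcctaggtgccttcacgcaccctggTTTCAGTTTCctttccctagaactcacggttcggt
Igtp: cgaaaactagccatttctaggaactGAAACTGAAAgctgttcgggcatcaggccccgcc

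Of the 41 genes, 29 had a RefSeq promoter, taken as the 250 bases before and the 50 after the start. This response element core stood in the promoters of 16 of the 29 genes (55.2%), against 3.99% of 27025 genes with such a promoter. It was absent from those of Slfn2 and Samhd1, which are among the most strongly read members. By role it was found in both sensors with a promoter, 4 of 5 GTPases, 7 of 12 antiviral effectors, 1 of 3 transcription factors, 1 of 2 feedback genes and 1 of 5 other genes. TTCNNNGAA, the core of the gamma-activated site, which reads alike on both strands, stood in 7 of the 29 (24.1%), against 9.55% of all genes. The 7 were Adar, Bst2, Ifi35, Igtp, Irgm2, Oas1a and Samhd1, and Bst2, Igtp, Irgm2 and Oas1a held both motifs. The one motif overlapped the other in Bst2 alone among the members, while matches of the response element core overlapped one another in Isg15, Bst2, Irgm1 and Oas1a. A match describes letters in a window and does not show that a factor was bound.

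Sequencing depth was alike between the libraries. PBS 1 held 11328132 reads on genes and PBS 2 held 10724392, while TSLP 1 held 11761234 and TSLP 2 held 10271571. The markers of Treg cells were read in all libraries. Foxp3, the lineage factor of Treg cells, stood at 222 cpm (counts scaled to the total reads on genes of a library) in PBS 1 and 472 in PBS 2, and at 407 in TSLP 1 and 470 in TSLP 2. PBS 1 thus had the lowest Foxp3, and it was also lowest in Ikzf2, the gene of the transcription factor Helios, with 568 cpm against 976, 996 and 953. Tnfrsf18, encoding the costimulatory receptor GITR, went the other way and was highest in PBS 1, at 532, 348, 356 and 427 cpm. Il2ra, the gene of the high-affinity interleukin 2 receptor chain, ranged from 342 to 498 cpm, Cd4 from 512 to 602 and Cd3e from 232 to 261. Ctla4, the inhibitory receptor gene, was read evenly, at 1284, 1142, 1198 and 1253 cpm in the same order. Summed over their lists, 5 B cell genes gave 0.618, 10.4, 5.02 and 9.35 cpm, 2 CD8 T cell genes between 7.83 and 13.4 cpm, and 3 NK cell genes 0.706, 0, 1.28 and 2.73 cpm. Of plasmacytoid dendritic cells, which are rich in interferon-stimulated transcripts, 6 genes summed to 6.27, 3.08, 6.63 and 6.72 cpm. Most of this was Tcf4, and the defining marker Siglech had no reads in any library. The 6 myeloid genes summed to 18.4, 11.9, 11.3 and 11.1 cpm. Among them Cd68, the most abundant in PBS 1, stood at 15.4, 6.15, 5.02 and 1.56 cpm. Lyz2, the lysozyme gene, was lowest in PBS 1, at 0.0883, 4.01, 3.15 and 3.89 cpm, and Cd14 stood at 0.794, 0, 2.72 and 2.34 cpm. Itgam, the gene of an integrin chain of myeloid cells, stood at 2.03, 1.77, 0.340 and 0.682 cpm. Csf1r, another myeloid gene, stood at 0.0883, 0, 0.085 and 2.63 cpm, highest in TSLP 2, where Cd68 was lowest. Both TSLP libraries were below both PBS libraries in Cd68 and Itgam, as in 14.4% of all genes tested. They were above them in Cd14, as in 14.5%. The macrophage gene Adgre1 had no reads. The part of other cells in the values below was not tested, and in bulk samples fewer cells of a type and less RNA per cell cannot be told apart.

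In PBS-stimulated Treg cells the program was present but uneven, with high levels of Slfn2, Igtp, Isg15 and Samhd1 and low levels of 10 of the 15 antiviral effectors. The 41 genes together took 0.324% of the reads in PBS 1 and 0.344% in PBS 2, and 0.304% in TSLP 1 and 0.34% in TSLP 2. Samhd1, Slfn2 and Igtp alone held 42.8% and 42.2% of the members' reads in PBS 1 and 2 and 39.8% and 44.4% of those in TSLP 1 and 2. To compare genes with one another, levels are given as RPKM, reads divided by the kilobases of exon of the gene and scaled to the total reads on genes. This length counts each base in an exon of any annotated transcript, so introns retained in some transcripts lengthen it and lower the level. The median PBS level of the 40 members that passed a filter of 10 normalized counts in at least 2 libraries was 9.9 RPKM, against 7 over all genes that passed it and had an exon length. Of these 40, 23 ranked above the median of the 10944 genes. The 6 highest, Slfn2, Igtp, Isg15, Samhd1, Gbp2 and Irgm2, ranked between the percentiles 98.7 (Slfn2) and 91.0 (Irgm2). Over all 41 genes, 20 had a mean PBS level of at least 10 RPKM, 15 stood under 5 and 2 under 1. Counting errors alone allow up to 3 reads where a gene has none, or 0.255 to 0.292 cpm, and since copies made by PCR were counted as reads this limit covers counting error only.

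**Figure D1:**
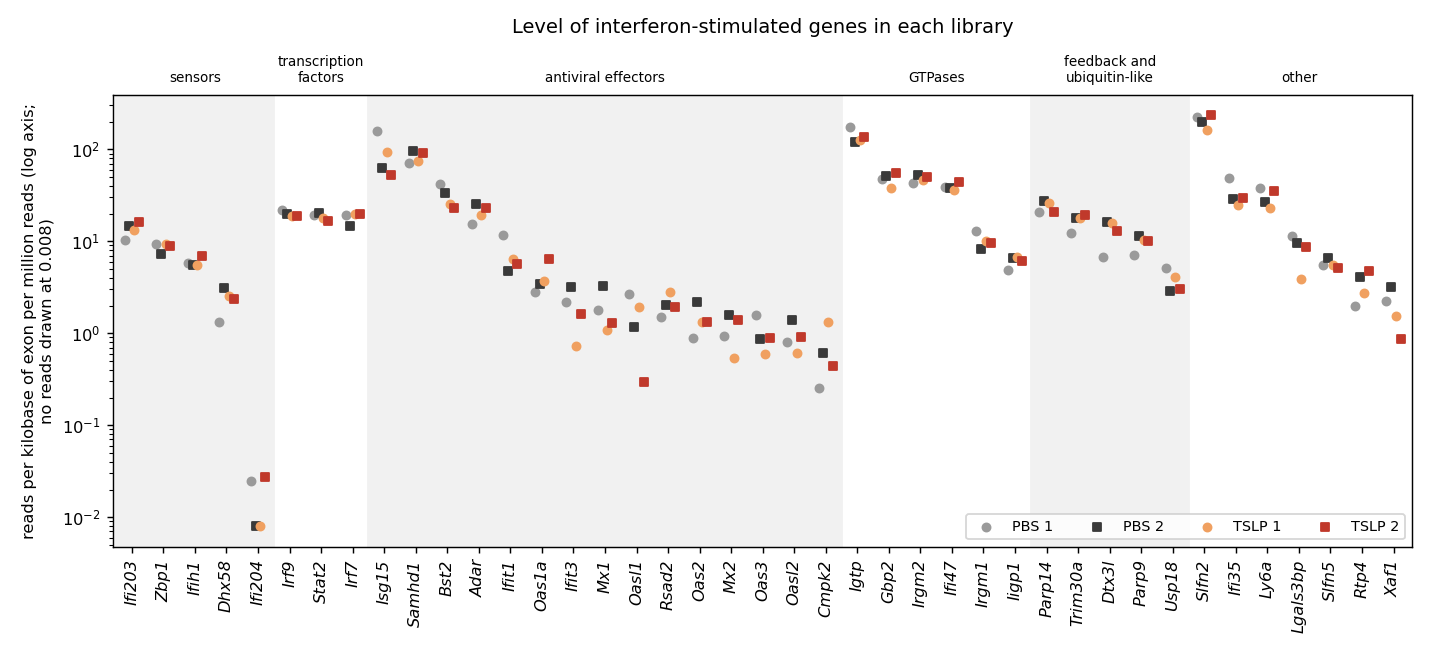
Level of each of the 41 genes in RPKM (log axis) in PBS 1, PBS 2, TSLP 1 and TSLP 2, grouped by role and ordered within a role by the mean PBS level. Points at the bottom for Ifi204 stand for libraries without reads; the levels run from under 0.1 for Ifi204 to over 100 for Slfn2, Igtp and Isg15.

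Among the sensors, the median PBS level was 5.62 RPKM. Ifi203, a member of the family that binds DNA through HIN domains, stood at 10.3 and 14.7 RPKM in PBS 1 and 2, and at 13.4 and 16.4 RPKM in TSLP 1 and 2. PBS 1 was lowest, TSLP 2 was highest and the groups overlapped. Zbp1, which recognises left-handed nucleic acid and can start necroptosis, stood at 9.33, 7.35, 9.32 and 8.94 RPKM in the same order. Ifih1, encoding the RNA sensor MDA5, stood at 5.77, 5.47, 5.47 and 6.94 RPKM. For Zbp1 and Ifih1 the groups overlapped too. Dhx58, encoding the related helicase LGP2, was lower, with a mean PBS level of 2.21 RPKM. Ifi204, another HIN-domain gene, had 1 read in PBS 1, 1 in TSLP 2 and none in PBS 2 and TSLP 1, which is within the limit of 3 reads. It was the only member that did not pass the filter of 10 normalized counts in at least 2 libraries and was not tested.

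The transcription factor genes were read at moderate and even levels. For Irf7 the exons merged into 1 unbroken block of 3776 bases, so its level may be understated against other genes. Irf9, the DNA-binding subunit of ISGF3, stood at 21.7 RPKM in PBS 1, 19.7 in PBS 2 and 18.7 in both TSLP libraries. Stat2, its partner, stood at 19.4, 20.2, 18.1 and 16.5 RPKM. In both genes the TSLP libraries lay slightly below the PBS libraries. Irf7, which amplifies the production of type I interferon, stood at 19.1, 14.6, 19.9 and 20.01 RPKM, with PBS 2 below the other 3.

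The antiviral effectors ranged from 0.430 RPKM for Cmpk2 to 111 for Isg15 in the mean of the PBS libraries, with a median of 2.51. Isg15, which encodes a ubiquitin-like protein that is conjugated to other proteins, lies at chr4:156199424-156200818 and stood at 160 and 62.9 RPKM in PBS 1 and 2, and at 93.6 and 53.2 RPKM in TSLP 1 and 2. Replicate 1 was the higher library in both groups, and the PBS libraries enclosed TSLP 1. Samhd1, encoding a phosphohydrolase that depletes nucleotides needed for reverse transcription, had the most reads of all members (7428 and 9387 with PBS, 8052 and 8671 with TSLP). Its levels per length of 71.7, 95.7, 74.8 and 92.3 RPKM overlapped between the groups. Bst2, which encodes tetherin and holds budding virions at the cell surface, stood at 42.04, 33.1, 25.3 and 23.2 RPKM, both PBS libraries above both TSLP libraries. Adar, the adenosine deaminase that edits double-stranded RNA, had a mean PBS level of 20.2 RPKM and Ifit1, which binds foreign 5′ ends of RNA, 8.24. The remaining 10 effectors all stood between 0.430 and 3.11 RPKM. They were the oligoadenylate synthetase genes Oas1a, Oas2, Oas3, Oasl1 and Oasl2, the dynamin-like Mx1 and Mx2, Ifit3, Rsad2 (viperin) and its neighbour Cmpk2. The gene annotation used lists Mx2 as a polymorphic pseudogene. In Ifit3 and Oas1a, 51.2% and 57.6% of the 50-base stretches of the transcripts also occurred in another gene, so their levels may be understated.

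The GTPases, which act on vacuoles that hold intracellular pathogens and respond strongly to interferon gamma, had the highest median of the 6 roles, 43.2 RPKM, with a range from 5.68 for Iigp1 to 148 for Igtp. Igtp, also called Irgm3, lies at chr11:58199556-58207591 and stood at 176 and 120 RPKM in PBS 1 and 2, and at 127 and 136 RPKM in TSLP 1 and 2. PBS 1 was highest and the other 3 libraries were close. Gbp2 stood at 48.03, 50.8, 38.3 and 55.7 RPKM, and Irgm2 at 43.3, 51.9, 46.0 and 50.02 RPKM. In neither gene did the groups separate. Ifi47 had a mean PBS level of 38.9 RPKM and Irgm1, a regulator of autophagy, of 10.6.

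Among the feedback and ubiquitin-like genes, Parp14, an ADP-ribosyltransferase, stood at 20.8 and 27.5 RPKM in PBS 1 and 2, and at 25.9 and 21.04 RPKM in TSLP 1 and 2. Trim30a, a TRIM protein gene that restrains inflammatory signalling, stood at 12.5, 17.9, 17.7 and 19.3 RPKM. Dtx3l, a ubiquitin ligase that works with Parp9, stood at 6.68, 16.4, 15.8 and 12.9 RPKM. In both Trim30a and Dtx3l, PBS 1 was the lowest library by some distance. Parp9 had a mean PBS level of 9.21 RPKM, and Usp18, which removes Isg15 from proteins and damps the type I receptor, of 3.98. Of the other genes, Slfn2, known for keeping T cells quiescent, had the highest level of all members, 225 and 199 RPKM in PBS 1 and 2, and 162 and 235 RPKM in TSLP 1 and 2. Ifi35 stood at 48.9, 29.05, 24.9 and 29.7 RPKM, and Ly6a, encoding the surface protein Sca-1, at 37.8, 26.5, 22.9 and 35.3 RPKM. Slfn2 and Ly6a were lowest in TSLP 1, and Ifi35 stood out as high in PBS 1 alone. Lgals3bp, Slfn5, Rtp4 and Xaf1 had mean PBS levels of 10.6, 6.02, 3.05 and 2.70 RPKM.

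Stimulation with TSLP for 3 h was not accompanied by a detectable shift of the program. In limma fitted on log2(normalized count + 1), 0 of the 40 members had an unadjusted p under 0.05, against 1.69% of the 11392 genes tested (0.772% higher and 0.913% lower with TSLP), and the smallest p was 0.0674. After Benjamini-Hochberg adjustment over all genes, limma left 0 members and 0% of all genes under 0.05, and the adjusted p was 0.9999 for each of the 40 members. edgeR and DESeq2, run on the recovered reads, likewise gave 0 members at an unadjusted p under 0.05, against 2.05% of all genes by each, and 0 at an adjusted p under 0.05. The unadjusted count of members was also 0 in limma with TMM scaling (1.68% of all genes), no filter (2.57%), a filter at a mean of 50 (2%), a pseudocount of 5 (2.1%), a replicate block (2.26%) and the length trend removed (1.88%). Fold changes are differences of the mean log2(normalized count + 1), TSLP minus PBS, and the added 1 draws the ratio of any pair of low counts towards 0. With TSLP 17 members were higher and 23 lower, where 51.2% of all genes were higher. The median log2 fold change of the members was −0.08, against 0.01 over all genes tested, and their median absolute value was 0.26 against 0.26. Without TSLP 1 the members' median was 0.07.

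The TSLP libraries both exceeded the PBS libraries in normalized counts in 3 members (7.5%, against 14.5% of all genes), namely Irf7, Oas1a and Trim30a. For Trim30a these counts were 562 and 787 with PBS and 808 and 853 with TSLP. The TSLP libraries were both below the PBS libraries in 7 members (17.5%, against 14.4%), namely Stat2, Irf9, Ifit3, Mx1, Bst2, Xaf1 and Lgals3bp. Taken over both directions, the groups did not overlap in 25% of the members and in 28.9% of all genes. The difference of the mean log2 values exceeded 2-fold in 4 members (10%), Ifit3, Oasl1, Mx1 and Xaf1, all lower with TSLP, and in 12.3% of all genes. By the arithmetic means of the normalized counts the 4 were Ifit3, Mx1 and Xaf1, lower with TSLP, and Cmpk2, higher with TSLP. In 35 members (87.5%) at least 1 of the replicate pairs was farther apart than the group means, against 83.3% of all genes. The 5 exceptions were Stat2, Ifit3, Mx1, Bst2 and Xaf1.

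**Figure D2:**
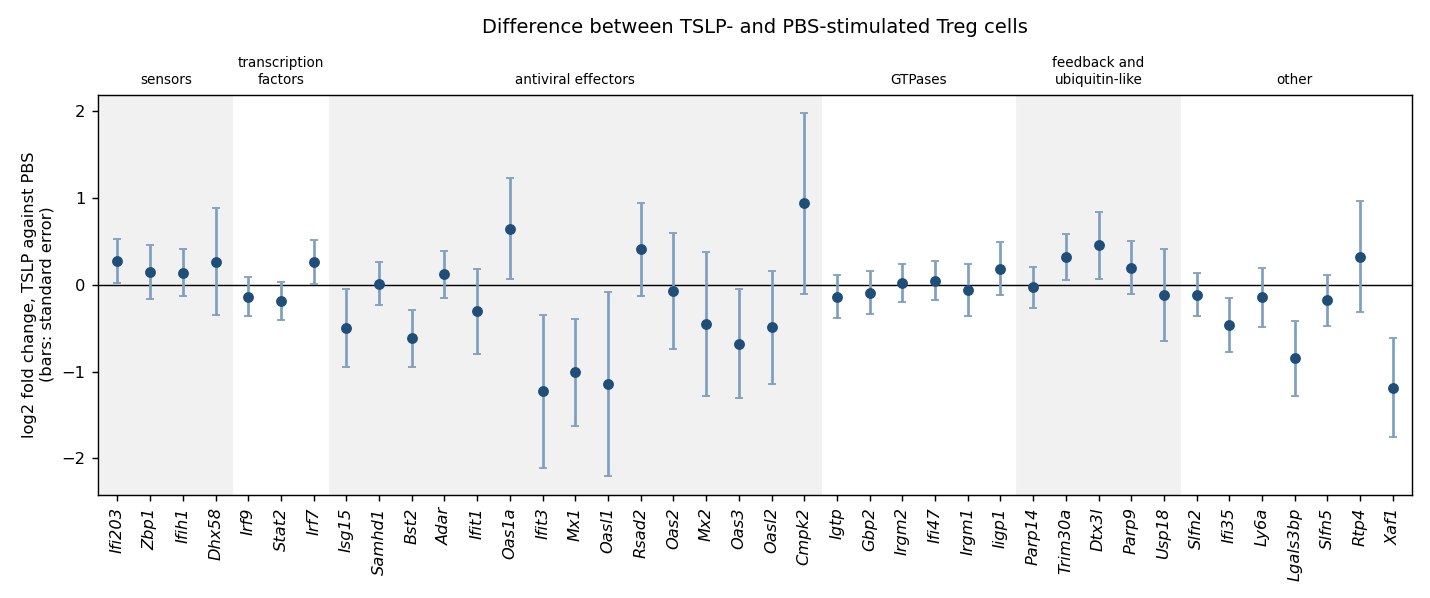
Log2 fold change of TSLP against PBS for the 40 members tested (points) with the standard error of the limma fit (bars), grouped by role. Points lie on both sides of 0, from −1.23 for Ifit3 to 0.94 for Cmpk2, and the bars are longest for genes with few reads such as Oasl1 and Cmpk2.

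The largest differences towards lower values were found among weakly read genes. Ifit3, an adaptor of the same family as Ifit1, lies at chr19:34583531-34588731 and was read 43 and 60 times with PBS and 15 and 29 times with TSLP. In normalized counts this was 50.9 ± 13.0 against 22.2 ± 11.4 (SD, n = 2 each). limma gave a log2 fold change of −1.23 ± 0.88 (standard error) with an unadjusted p = 0.195. The TSLP libraries were both below the PBS libraries, with TSLP 1 lowest, and without TSLP 1 the value was −0.705. Of the 50-base stretches of the Ifit3 transcripts, 51.2% were also found in Ifit3b, so that its count is uncertain; Ifit3b itself had 5 reads in TSLP 1 and none elsewhere. Between 10.4% and 19% of such stretches were shared with another gene in Ifi35, Slfn5, Rtp4, Igtp, Ifi203, Adar and Ly6a.

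Xaf1, encoding a factor that binds the apoptosis inhibitor XIAP, lies at chr11:72301629-72313733 and was read 118 and 160 times with PBS and 84 and 42 times with TSLP. In normalized counts this was 137 ± 32.3 against 61.5 ± 24.9 (SD, n = 2 each). Its log2 fold change of −1.18 ± 0.57 (standard error) was the nearest to the threshold among the members, with an unadjusted p = 0.0674 in limma. TSLP 2 was the lowest library, and without it the log2 fold change was −0.77. Oasl1, an oligoadenylate synthetase-like gene that restrains the translation of Irf7, was read 78 and 33 times with PBS and 59 and 8 times with TSLP. The log2 fold change came to −1.15 ± 1.06 (standard error), with an unadjusted p = 0.306 in limma. The groups overlapped, the value was −0.76 by edgeR and by DESeq2, and without TSLP 2 it was 0.15.

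In Mx1 and Bst2, a weakly and a strongly read effector gene, both TSLP libraries were below both PBS libraries. Mx1, at chr16:97447035-97462907, had normalized counts of 74.6 and 131 with PBS and of 45.2 and 52.3 in the TSLP libraries. This gave a log2 fold change of −1.01 ± 0.62 (standard error) and an unadjusted p = 0.136 in limma. Without PBS 2, the higher of the PBS libraries, it was −0.61. Bst2, at chr8:71534255-71537456, had normalized counts of 417 and 321 with PBS and of 253 and 225 in the TSLP libraries, or 369 ± 67.6 against 239 ± 20.3 (SD, n = 2 each). Its log2 fold change of −0.61 ± 0.33 (standard error), with an unadjusted p = 0.0945 in limma, kept its sign on leaving out any library, from −0.80 to −0.43. Lgals3bp, encoding a secreted galectin-binding glycoprotein, had normalized counts of 359.6 and 296 with PBS and of 123 and 265 in the TSLP libraries. The log2 fold change of −0.85 ± 0.43 (standard error) rested on TSLP 1, without which it was −0.30, and without TSLP 2 it was −1.40.

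The largest differences towards higher values were those of Cmpk2, Oas1a and Dtx3l. Cmpk2, a mitochondrial nucleotide kinase gene, was read 12 and 27 times with PBS and 65 and 19 times with TSLP. TSLP 1 was high and TSLP 2 lay between the PBS libraries, and the log2 fold change of 0.94 ± 1.04 (standard error) had an unadjusted p = 0.393 in limma. Without TSLP 1 it was 0.15. Oas1a was read 60 and 69 times with PBS and 82 and 123 times with TSLP. The groups did not overlap, and the log2 fold change of 0.65 ± 0.58 (standard error) had an unadjusted p = 0.295 in limma. Without TSLP 2 it was 0.28. Of its 50-base stretches 57.6% were shared with Oas1g, which had no reads in any library, so that this count too is uncertain. Dtx3l had normalized counts of 419.7 and 1007 with PBS and of 1000.5 and 795 in the TSLP libraries. Its log2 fold change of 0.46 ± 0.39 (standard error), with an unadjusted p = 0.268 in limma, depended on PBS 1, without which it was −0.17.

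By role, the 4 sensors tested were all higher with TSLP, with a median of 0.21 on the log2 scale, but the groups overlapped in each of the 4 and the sign of Dhx58, Ifih1 and Zbp1 turned on leaving out a library. Of the 3 transcription factor genes, Irf7 had a value of 0.26 (standard error 0.26), Stat2 of −0.19 (0.22) and Irf9 of −0.14 (0.22). On leaving out 1 library these kept their sign but ranged from 0.052 to 0.475 for Irf7, from −0.28 to −0.098 for Stat2 and from −0.23 to −0.050 for Irf9. The antiviral effectors were lower in 10 of 15, with a median of −0.45, and this was also the role with the lowest median PBS level. The median of the effectors was −0.23 without PBS 1 (the value of Oas3) and −0.12 without PBS 2 (that of Oasl2). The groups overlapped in 11 of the 15, and 5 of the 10 lower genes, Isg15, Ifit1, Oas2, Oasl1 and Mx2, changed sign on leaving out 1 library. The GTPases were divided evenly, 3 higher and 3 lower, with a median of −0.02. The feedback and ubiquitin-like genes were higher in 3 of 5, with a median of 0.20, but this direction depended on PBS 1. Without PBS 1 the median of these 5 was −0.14 (the value of Parp9), and Dtx3l turned to −0.17. Without PBS 2 the median was 0.53 (again Parp9). The other interferon-induced genes were lower in 6 of 7, with a median of −0.18. In 5 of these 7 the groups overlapped, and Slfn2 and Ly6a among the lower ones changed sign on leaving out 1 library. Of the 6 members with the highest PBS level per length, 5 had values near 0, with log2 fold changes of 0.01 for Samhd1 (standard error 0.25), 0.02 for Irgm2 (0.22), −0.09 for Gbp2 (0.24), −0.11 for Slfn2 (0.24) and −0.14 for Igtp (0.25). Isg15, the remaining one, had −0.50 with a standard error of 0.45, and 0.19 without PBS 1. The sign of Samhd1 turned to −0.14 once the trend of each library over exon length was removed.

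Set against each other, the libraries of a group differed about as much as the groups did. Between PBS 1 and PBS 2, 7 members differed over 2-fold (17.5%, against 21.9% of all genes), namely Dhx58, Isg15, Ifit1, Oas2, Oasl1, Cmpk2 and Dtx3l. Isg15, Ifit1 and Oasl1 were higher in PBS 1, by log2 ratios of 1.38, 1.33 and 1.17. Dtx3l, Oas2 and Dhx58 were lower in PBS 1, by −1.26, −1.25 and −1.18. Between TSLP 1 and TSLP 2, 5 members differed over 2-fold (12.5%, against 15.4%), namely Ifit3, Oasl1, Mx2, Cmpk2 and Lgals3bp, and the log2 ratio of Oasl1 reached 2.60. Between libraries of different groups the number was 5 for PBS 1 and TSLP 1 (12.5%, against 20.7% of all genes) and 6 for PBS 1 and TSLP 2 (15%, against 21.7%). It was 7 for PBS 2 and TSLP 1 (17.5%, against 13.4%) and 3 for PBS 2 and TSLP 2 (7.5%, against 15.4%). PBS 1 was the highest library in 12 members (30%, against 32.4% of all genes) and the lowest in 14 (35%, against 35.6%), shares close to those of all genes. PBS 2 was the highest in 15 (37.5%, against 23.3%). TSLP 1 was the highest in 5 (12.5%, against 20.8%) and the lowest in 11 (27.5%, against 20.4%). TSLP 2 was the highest in 8 (20%, against 23.4%) and the lowest in 8 (20%, against 22.2%). Each library was the highest in at least 5 members and the lowest in at least 7.

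**Figure D3:**
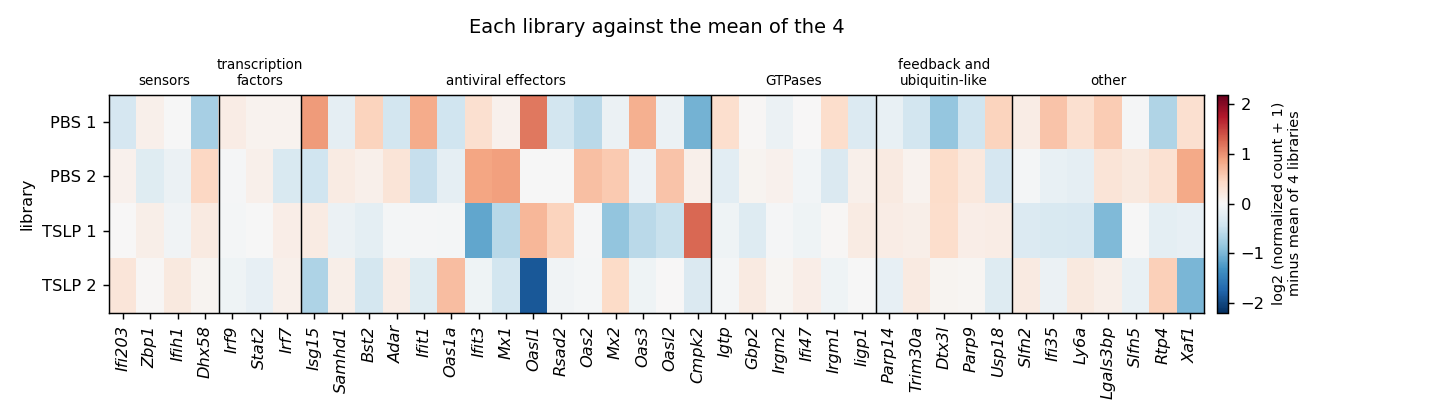
Log2(normalized count + 1) of each of the 40 members tested in each library, minus the mean of the 4 libraries (colour scale, red above and blue below the mean), grouped by role. PBS 1 holds both strong reds (Isg15, Ifit1, Oasl1) and blues (Dhx58, Dtx3l, Cmpk2), and the deepest blue is Oasl1 in TSLP 2, with 8 reads.

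PBS 1 also stood apart by the length of genes. In 2679 strongly read genes, each library was set against the mean of the others, and the difference was correlated with exon length. The Spearman rho was −0.657 in PBS 1, against 0.569 in PBS 2, 0.399 in TSLP 1 and 0.303 in TSLP 2. Across the 40 members the log2 ratio of PBS 1 to PBS 2 had a Spearman rho of −0.347 with exon length, and across the 10944 tested genes with a length the value was −0.331. These are descriptions across genes of the same libraries, which are not independent replicates. Isg15, with 756 bases of exon, was higher in PBS 1, while Dtx3l, with 5725, and Samhd1, with 9150, were lower there. The ratio of the TSLP libraries had a rho of 0.139 over the members, and the fold change of TSLP against PBS one of 0.221. The median exon length of the tested members was 3780.5 bases, against 4466 over all genes tested. With the length trend removed, limma called 0 members at an unadjusted p of 0.05 and the members' median log2 fold change was −0.07.

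**Figure D4:**
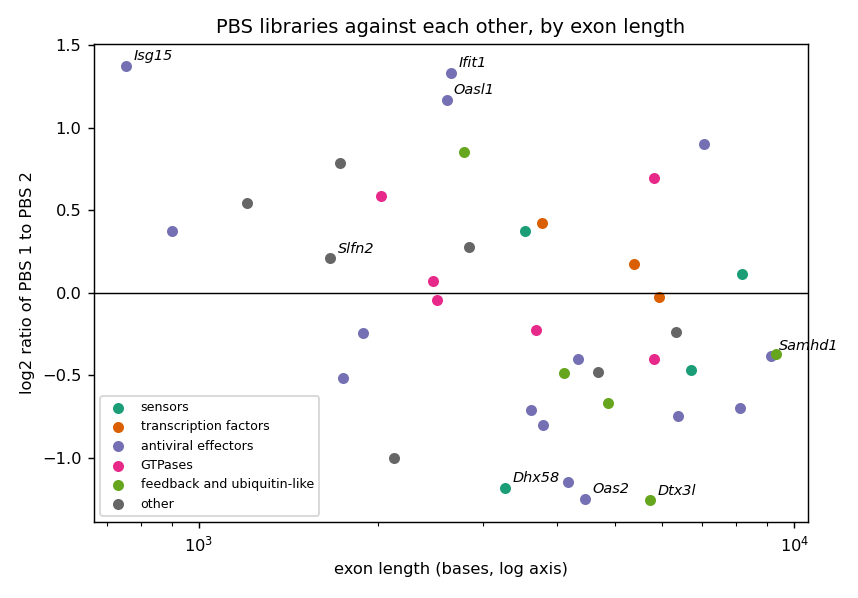
Log2 ratio of PBS 1 to PBS 2 against exon length in bases (log axis) for the 40 members tested, coloured by role. Isg15 (756 bases) lies above 0 and Dtx3l (5725 bases) below it, short and long genes both lie on either side of 0, and Oas2 and Dhx58 are among the lowest.

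The members' values without 1 of the PBS libraries are given because PBS 1 had the lowest Foxp3 and stood apart by gene length. Foxp3 has 4577 bases of exon, Ikzf2, also low in PBS 1, 11613, and Tnfrsf18, high there, 1524. Whether the low Foxp3 and the length trend were linked was not tested. Without PBS 1, limma called 0 members at an unadjusted p of 0.05, against 2.31% of all genes, and their median was −0.10. Without PBS 2, so that PBS 1 alone stood for the group and the spread came from the TSLP pair alone, 5 members (12.5%, against 16.3% of all genes) had an unadjusted p under 0.05, namely Isg15 (−1.19), Igtp (−0.43), Dtx3l (1.09), Trim30a (0.56) and Ifi35 (−0.86). None of the 5 passed 0.05 after Benjamini-Hochberg adjustment of these limma p-values, and 1858 of all genes then passed the unadjusted threshold, against 192 with all libraries. Without PBS 1 the log2 fold changes of these 5 genes were 0.19, 0.16, −0.17, 0.08 and −0.07. Without TSLP 1, 0 members passed the unadjusted threshold in limma, against 1.47% of all genes, and without TSLP 2 the count was 1, Lgals3bp, against 0.693%.

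The machinery around the members was followed in 129 further genes of interferon production, reception and response. Of 21 interferon ligand genes, 20 had no reads in any library. Ifng, which encodes interferon gamma, was read 151 and 52 times with PBS and 59 and 86 times with TSLP, with PBS 1 highest and TSLP 2 next. The receptor chains of both interferon types were read, Ifngr1 and Ifnar1 at high levels and Ifnar2 and Ifngr2 at lower ones. Ifngr1 stood at 357 and 263 RPKM with PBS and at 332 and 319.97 with TSLP. Ifnar1 stood at 60.7 and 65.9 RPKM with PBS and at 61.3 and 62.5 with TSLP, a difference of −0.02 ± 0.21 on the log2 scale (standard error). Ifnar2 stood at 28.2 and 22.6 RPKM with PBS and at 21.5 and 25.2 with TSLP. Ifngr2 stood at 32.7 and 16.2 RPKM with PBS and at 23.2 and 13.2 with TSLP, replicate 1 being higher in both groups. Il10rb, a chain shared by the receptors of interferon lambda and interleukin 10, stood at 9.04 and 10.02 RPKM with PBS and at 12.1 and 14.4 with TSLP. It was the receptor chain with groups that did not overlap (log2 fold change 0.48 ± 0.27, standard error, and an unadjusted p = 0.112 in limma). Ifnlr1, the chain particular to interferon lambda, had no reads.

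Irf1, which drives many genes of the interferon gamma response, stood at 82.3 and 67.2 RPKM with PBS and at 77.3 and 72.4 with TSLP, a difference of 0.02 ± 0.22 (standard error) on the log2 scale. Of the 129 genes 96 were tested, with 52 higher and 44 lower with TSLP and a median log2 fold change of 0.05. Only Slfn9 and Cxcl10 (2 of 96, or 2.08%, against 1.69% of all genes) passed an unadjusted p of 0.05 by limma, and after Benjamini-Hochberg adjustment both stood at 0.9999. Ticam1, the gene of the adaptor TRIF, was higher with TSLP by 1.04 ± 0.50 (log2, standard error; unadjusted p = 0.0674 in limma). Its reads, 85 and 222 with PBS and 288 and 275 with TSLP, were lowest in PBS 1, and PBS 1 and 2 differed by more (log2 ratio −1.42) than the groups did. It passed the unadjusted threshold with a filter at a mean of 50 normalized counts, with a replicate block and without PBS 2, but not without PBS 1. Without PBS 2, 12 of the pathway genes passed, where 16.3% of all genes did. Without PBS 1 the pathway genes that passed were Ifi27l2a, Ifitm3 and Tdrd7, and neither Slfn9 nor Cxcl10 did, without TSLP 1 Slfn9 was the only one, and without TSLP 2 there was none. The TSLP libraries both exceeded the PBS libraries in 14 of the 96 (14.6%, against 14.5% of all genes) and were both below them in 15 (15.6%, against 14.4%).

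Cxcl10, a chemokine gene strongly induced by interferon gamma, was read 254 and 207 times with PBS and 134 and 83 times with TSLP. In normalized counts this was 227 ± 27.6 against 106 ± 27.9 (SD, n = 2 each), a log2 fold change of −1.10 ± 0.43 (standard error). limma gave it an unadjusted p = 0.0317. Over 12 alternatives by limma, edgeR or DESeq2 its unadjusted p ranged from 0.0258 to 0.165 and was under 0.05 in 7, but in none of the 4 that left out a library. Slfn9, a relative of Slfn2, was read 15 and 32 times with PBS and 67 and 145 times with TSLP. This was a log2 fold change of 2.13 ± 0.81 (standard error), with an unadjusted p = 0.0269 in limma. Over the same alternatives its unadjusted p ranged from 0.0173 to 0.224 and was under 0.05 in 10, the exceptions being those without PBS 1 or without TSLP 2. For both genes the groups did not overlap, in opposite directions, and Slfn2 and Slfn5 had log2 fold changes of −0.11 and −0.18. Of the 50-base stretches of Slfn9 11.9% were shared with other genes, most with Slfn10-ps.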

How the data were processed

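Total RNA of sorted Treg cells was sequenced as 50-base single-end reads, which the authors mapped to mm10 with HISAT2 and counted on genes with HTSeq. The deposited signal values are these read counts divided by the authors' DESeq2 size factor (1.032 and 0.9995 for the PBS libraries, 1.061 and 0.9569 for the TSLP libraries). All values (100%) lay within 0.01 of a whole number of reads, so that reads were recovered. The reads on genes ranged from 10271571 to 11761234. The strand setting of the counting is not given in the sources used here; 17 members share exon bases with another gene.

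TSLP was compared with PBS by limma 3.58.1 (moderated fit with trend) in R 4.3.3 on log2(normalized count + 1). The 11392 genes tested had at least 10 normalized counts in at least 2 libraries, and p-values were adjusted by Benjamini-Hochberg. edgeR 4.0.16 (234 genes at an unadjusted p under 0.05) and DESeq2 1.42.0 (286) were run on recovered reads, and other alternatives were TMM scaling, other filters, a pseudocount of 5, a replicate block, removal of the exon length trend and leaving out each library. Exon lengths came from GENCODE M21, which may differ from the authors' annotation, and promoters from RefSeq. The members and lists were chosen with earlier results of these data known. Named were the 3 largest differences in each direction, the 3 highest PBS levels of each role, members at or under 3 reads, the receptor chains, Irf1 and pathway genes with an unadjusted p under 0.05; others were named after their values were seen. Flow cytometry, quantitative PCR and a few genes of the lists are not reported here.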

Additional observations from a re-analysis of the deposited data

How the results depend on the processing

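With 2 libraries a group and at most 11761234 reads on genes in each, differences of members were not resolved from the spread between replicates. This held for weakly and for strongly read members. For Isg15, with 413 to 1369 reads, the log2 fold change had a standard error of 0.45. In all 12 alternatives 0 genes had an adjusted p under 0.05 by limma, edgeR or DESeq2 with Benjamini-Hochberg adjustment. The number of genes with an unadjusted p under 0.05, 192, was 358 without a filter on low values and ranged from 79 (without TSLP 2) to 1858 (without PBS 2) on leaving out a library, where the lone library of a group is assumed to vary like the pair of the other. The number of members among them was 0 in the 8 alternatives that kept all libraries and ranged from 0 to 5 on leaving out a library, the single member without TSLP 2 being Lgals3bp (−1.40). The members' median ranged from −0.10 to −0.07 with all libraries and from −0.10 to 0.075 without 1 of them.

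Whether libraries with the same replicate number shared an animal, day or batch is not given in the sources used here. The log2 ratio of replicate 1 to 2 in PBS and in TSLP had a correlation of 0.00072 across the genes tested, which does not settle it. With the replicate number as a block, 258 genes and 0 members had an unadjusted p under 0.05, and the members' median stayed at −0.08.

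Of the values of 49 genes under the alternatives that kept all libraries, 385 kept their sign and their side of the threshold, 1 lost the threshold (Cxcl10, −1.09 by DESeq2) and 2 changed sign on removal of the length trend (Samhd1 −0.14 and Adar −0.00045). Ifit3, Oasl1, Mx2 and Cmpk2 had no value at a mean of at least 50 normalized counts. On leaving out a library, 28 genes changed sign, with these lowest and highest log2 fold changes: Adar −0.23 and 0.47, Dhx58 −0.32 and 0.86, Dtx3l −0.17 and 1.09, Gbp2 −0.34 and 0.16, Ifi47 −0.067 and 0.16, Ifih1 −0.010 and 0.29, Ifit1 −0.97 and 0.36, Ifnar1 −0.067 and 0.018, Ifnar2 −0.29 and 0.067, Ifngr1 −0.14 and 0.34, Ifngr2 −0.91 and 0.14, Igtp −0.43 and 0.16, Iigp1 −0.018 and 0.39, Irf1 −0.15 and 0.18, Irgm1 −0.41 and 0.29, Irgm2 −0.091 and 0.14, Isg15 −1.19 and 0.19, Ly6a −0.43 and 0.14, Mx2 −1.10 and 0.19, Oas2 −0.70 and 0.55, Oasl1 −2.45 and 0.15, Parp14 −0.21 and 0.16, Parp9 −0.14 and 0.53, Rtp4 −0.18 and 0.82, Samhd1 −0.18 and 0.20, Slfn2 −0.36 and 0.14, Usp18 −0.54 and 0.31, and Zbp1 −0.041 and 0.34. The cause of these changes was not tested beyond the smaller number of samples. The remaining 21 genes, among them Xaf1 (−1.60 to −0.77), Mx1 (−1.41 to −0.61) and Bst2 (−0.80 to −0.43), kept their sign whichever library was left out.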
